A study of Mus musculus with 6 samples.

Results

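The genes described here encode receptors through which phagocytes bind what they engulf, with the adaptor and the lysosomal protein that work beside them. The 10 members, Fcgr1, Fcgr2b, Fcgr3, Fcgr4, Fcer1g, Mertk, Axl, Cd36, Msr1 and Cd68, were chosen by gene symbol from the 25755 genes of the table, and all 10 were present. RNA was measured in whole optic nerves of 6 mice, of which 3 (mice 1 to 3) had received a sham operation and 3 (mice 4 to 6) optic nerve crush (ON-CR). Surgery was done at 6 weeks of age and nerves were analyzed at 12 weeks, which the sample labels give as 3 months. All 6 mice, the sham controls included, were NF1flox/flox;hGFAP-Cre, so that Cre driven by the human GFAP promoter deletes Nf1 in neuroglial progenitors and their progeny. The crush was bilateral, the mice were perfused before dissection, and no nerve with intact Nf1 and none from an unoperated mouse was analyzed here.

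Fc gamma receptors bind the constant part of IgG on coated particles. The activating receptors signal through the Fc receptor gamma chain, encoded by Fcer1g, whose tyrosine motif recruits the kinase Syk, whereas the receptor encoded by Fcgr2b carries an inhibitory motif. Mertk and Axl are receptor tyrosine kinases that recognize phosphatidylserine on dying cells through bridging proteins, Gas6 for both and protein S for Mertk. Scavenger receptors such as Cd36 and Msr1 bind modified lipoproteins and lipids without antibody, and Cd68 is a heavily glycosylated protein of late endosomes and lysosomes. In the central nervous system these genes are known mainly from microglia and macrophages, although Mertk and Axl are also made by astrocytes.

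The deposited values are normalized counts per gene. Depth was 19892892 to 23621006 estimated reads in sham and 17414091 to 18978379 in ON-CR libraries, so every ON-CR library was below every sham library. The value of 3 reads, used as a floor, lay between 2.66 and 3.18, and every member exceeded it in every mouse. The optic nerve label was met by abundant oligodendrocyte markers (Mbp, Mog, Mag, Cnp), although 4 of 4 were called lower after ON-CR, and by astrocyte markers, of which 0 of 5 were called. Nf1 transcript lay between 343 and 447 in all 6 mice. Sex-linked transcripts separated the groups as well. Xist was between 2.14 and 30.9 in the sham libraries and between 2708 and 6357 after ON-CR. Ddx3y was between 1291 and 1645 in the sham libraries and 976, 4.19 and 0 in ON-CR mice 4, 5 and 6, so that the library of mouse 4 held both transcripts. The label names a single mouse for that library, and whether it held RNA of other mice was not tested. Surgery and the difference in sex-linked transcripts cannot be told apart in the results below. In bulk RNA, a larger number of cells of a type and more RNA per cell cannot be told apart either.

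Of the 10 members, 4 were called higher after ON-CR (limma, adjusted p at or under 0.05 over 25755 genes) and 0 were called lower. Among all genes tested, 0.971% of genes were called higher and 1.13% were called lower. The called members were Fcgr2b, Fcgr3, Fcer1g and Cd68. The log2 fold change was above 0 for 10 of 10, with a median of 1.08 against 0.03 for all genes tested. Every ON-CR mouse exceeded every sham mouse for 6 of the 10, an arrangement found in 10.5% of all genes. An unadjusted p at or under 0.05 with a log2 rise of at least 1 was reached by 5 members, against 3.17% of all genes. These members were Fcgr1, Fcgr2b, Fcgr4, Fcer1g and Cd68. Fcgr3 fell just short, with a log2 fold change of 0.999, although the ratio of its group means was 2.07.

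**Figure D1:**
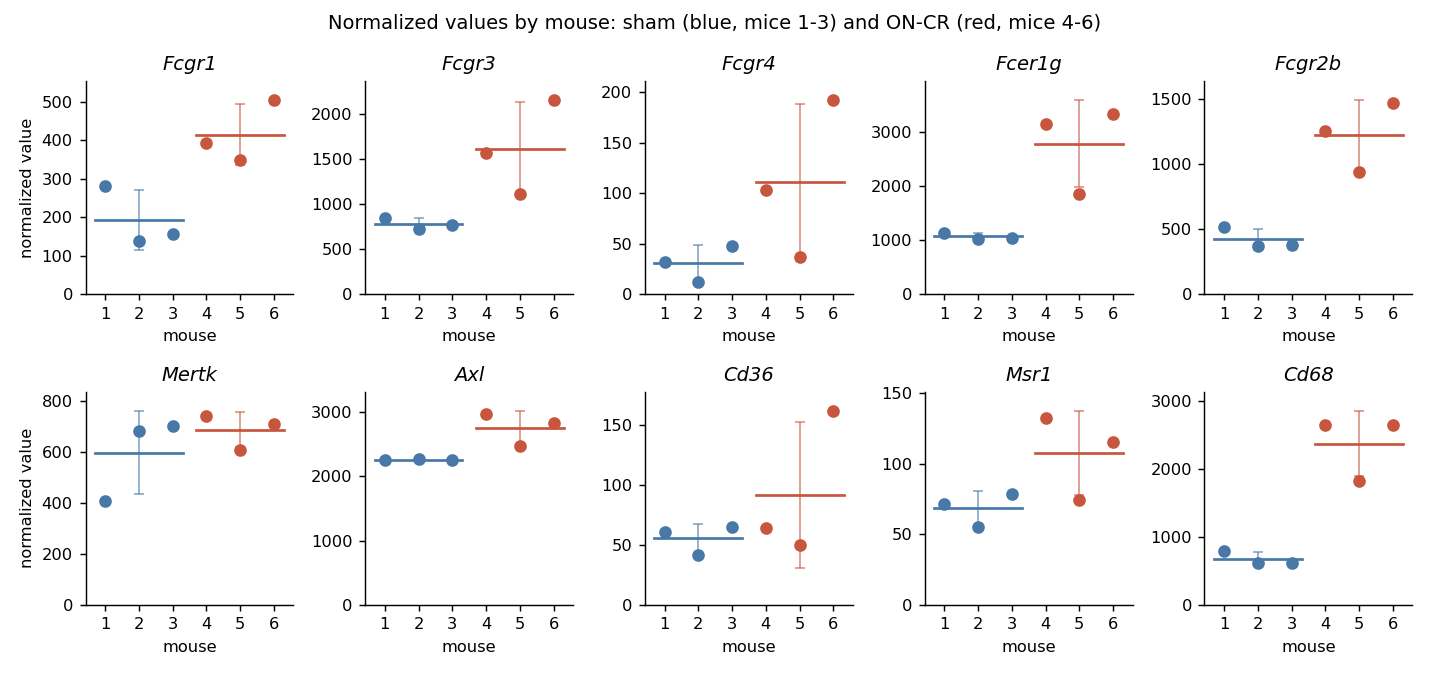
Normalized value of each member in each mouse, in 10 panels with a linear axis from 0. Points are mice 1 to 6, bars the mean of each group and vertical lines ± 1 SD (n = 3). Groups are apart for Fcgr1, Fcgr2b, Fcgr3, Fcer1g, Axl and Cd68, and ON-CR mouse 5 is the lowest of its group in all 10 panels.

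The 3 activating Fc gamma receptors differ in affinity for IgG. Fcgr1 encodes the high-affinity receptor, and Fcgr3 and Fcgr4 encode low- to intermediate-affinity receptors. Fcgr1 lies on chromosome 3 (GRCm38, chr3:96282909-96293969, minus strand), apart from Fcgr2b (chr1:170958617-170976547, minus), Fcgr4 (chr1:171018920-171029761, plus), Fcgr3 (chr1:171051174-171064935, minus) and Fcer1g (chr1:171229572-171234365, minus), which sit close together on chromosome 1. The stretches of 80 bases before the RefSeq start (GRCm38.p6) of the 3 activating receptors are shown because each holds the core letters bound by PU.1, a transcription factor of myeloid cells. Capitals mark CTTCCTC, the reverse complement of the searched core GAGGAAG, and sequences read 5′ to 3′ in the direction of the gene.
Fcgr1: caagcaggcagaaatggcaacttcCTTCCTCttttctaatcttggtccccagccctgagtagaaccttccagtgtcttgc
Fcgr3: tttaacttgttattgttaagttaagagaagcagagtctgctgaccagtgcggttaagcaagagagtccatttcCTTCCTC
Fcgr4: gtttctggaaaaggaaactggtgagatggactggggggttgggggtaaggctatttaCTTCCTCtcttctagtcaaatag
These stretches are chr3:96293970-96294049, chr1:171059404-171059483 and chr1:171018846-171018925. Counting back from the base just before the start, the match began at -56 in Fcgr1, -7 in Fcgr3 and -23 in Fcgr4. Another RefSeq start of Fcgr3 places the same match at -16, and both starts lie inside the gene coordinates given above. The core was searched on both strands, in windows of 250 bases before to 50 after the start. It was present in 4477 of 32851 windows of all genes (13.6%) and in 5 of 10 windows of the members. These 5 belong to 4 of the 9 members with a window, the fourth being Axl. The windows of Fcgr2b, Fcer1g and Cd68, all called higher, held no match, and neither did those of Mertk and Cd36. A match is a description of letters and not evidence of binding, and Msr1 had no window in the table.

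Fcgr3, which encodes the activating low-affinity receptor, was the most abundant of the 3 per length of transcript. Its normalized value was 843, 718 and 770.2 in the sham nerves and 1564, 1109 and 2148 after ON-CR (mice 1 to 6 in order). The groups did not overlap, and within the ON-CR group mouse 5 was lowest and mouse 6 highest. The mean rose from 777 ± 63.0 to 1607 ± 521 (SD over 3 mice each). On the log2 scale this was a rise of 0.999 with a standard error of 0.21 and limma adjusted p = 0.0393. This call was lost when any of sham mice 1, 2 or 3 or ON-CR mice 4 or 6 was left out, with limma adjusted p = 0.113, 0.197, 0.126, 0.0800 and 0.163 respectively.

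Fcgr1 gave 281, 137 and 157 in sham mice and 393, 348 and 504 in ON-CR mice. Sham mouse 1 stood closest to the ON-CR group, but the groups did not overlap. The means were 192 ± 78.1 and 415 ± 80.1 (SD, n = 3 each), and the log2 difference of 1.16 (SE 0.26, 95% interval 0.58 to 1.75) had a limma adjusted p = 0.0545, just outside the threshold.

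Fcgr4 was the least abundant Fc gamma receptor per length. It measured 31.8, 11.5 and 47.9 in the sham group and 104, 36.7 and 192 after ON-CR. The value of ON-CR mouse 5 fell inside the sham range. Its means of 30.4 ± 18.2 and 111 ± 77.9 (SD, n = 3 each) gave a log2 difference of 1.75, with the widest interval of the members (95%, 0.36 to 3.14), and limma adjusted p = 0.205. Fcgr4 was called in 1 of 14 alternative settings, without ON-CR mouse 5 (log2 difference 2.39, limma adjusted p = 0.0367). Without sham mouse 2 or ON-CR mouse 6 the log2 difference was 1.19 and 1.21 (limma adjusted p = 0.534 and 0.526).

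Fcer1g, the signaling chain shared by the activating receptors, measured 1138, 1025 and 1041 in sham nerves. After ON-CR it measured 3154, 1859.8 and 3339. The sham mice lay within a narrow band and all 3 ON-CR mice were above it. The mean rose from 1068 ± 60.9 to 2784 ± 806 (SD over 3 mice each), which on the log2 scale was a rise of 1.34 (SE 0.20, limma adjusted p = 0.00880). The adjusted p was 0.0936 without ON-CR mouse 6, 0.0654 without sham mouse 2 and 0.0527 without sham mouse 3.

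Fcgr2b, the inhibitory receptor that restrains the activating ones, rose as well. Sham values were 514, 367 and 379, and ON-CR values were 1251, 939 and 1469.7. The lowest ON-CR mouse was far above the highest sham mouse. The means were 420.1 ± 81.6 and 1220.0 ± 267 (SD over 3 mice each), the rise on the log2 scale was 1.53 (SE 0.19) and limma gave adjusted p = 0.00403. Leaving out ON-CR mouse 6 moved this to adjusted p = 0.0518. Fcgr2b and Fcgr3 are similar in sequence: they shared 166 exonic windows of 50 bases, 2.92% of those of Fcgr2b and 9.58% of those of Fcgr3. Over all genes, 395 windows of Fcgr2b (6.95%) were shared, with 146 genes, and the exons of Fcgr2b overlap the antisense gene Gm38204 over 155 bases. How such reads were assigned is not given in the sources used here, so values of both genes are uncertain. The other 8 members shared no such window with any gene.

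The balance between activating and inhibitory receptors was read as a log2 ratio within each nerve. For Fcgr3 to Fcgr2b this ratio was 0.71, 0.97 and 1.02 in sham mice and 0.32, 0.24 and 0.55 in ON-CR mice, so every ON-CR nerve was below every sham nerve (mean difference -0.53, two-sided exact permutation p = 0.1, the smallest p that 3 against 3 allows). Fcgr1 to Fcgr2b was also lower in every ON-CR nerve, with a difference of -0.36 (exact permutation p = 0.1). Fcgr4 to Fcgr2b overlapped between the groups (difference 0.22, exact permutation p = 0.7). Over the 14 ratios computed here and below, an exact p of 0.1 corresponded to an adjusted p = 0.233, so none passed the threshold and none could have.

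**Figure D2:**
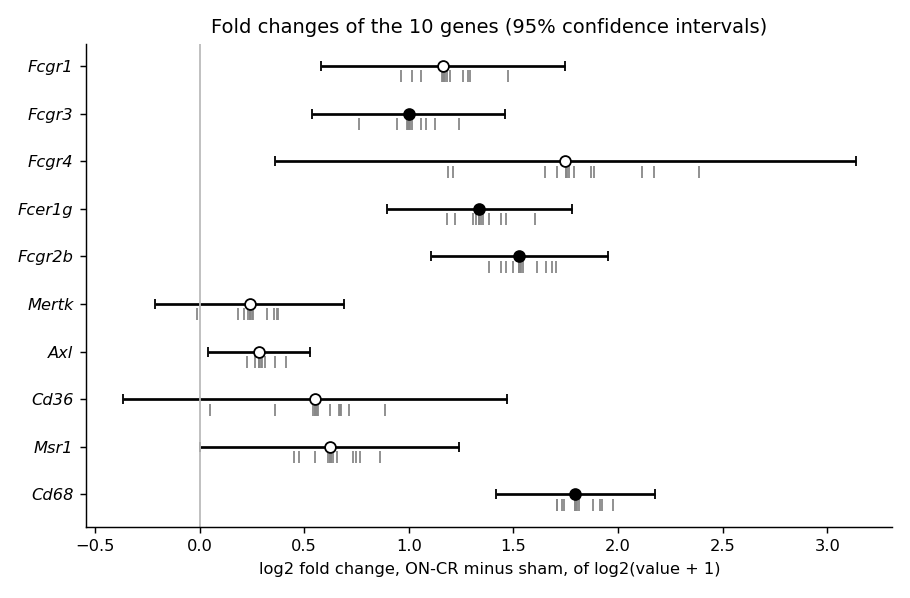
Log2 fold change of each member, ON-CR minus sham, on the log2(value + 1) scale, with its 95% limma interval (n = 3 mice per group). The called members Fcgr2b, Fcgr3, Fcer1g and Cd68 have intervals above 0, Fcgr4 has the widest interval, and those of Mertk and Cd36 span 0.

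Mertk and Axl belong with Tyro3 to a receptor family that clears dying cells without antibody. Neither was called. Mertk measured 409, 682 and 702 in sham mice and 743, 610.1 and 711 in ON-CR mice. Apart from sham mouse 1, the 5 values lay close together and the groups overlapped. The means were 597 ± 164 and 688 ± 69.3 (SD, n = 3 each), with a log2 difference of 0.24 (95% interval -0.21 to 0.69, limma adjusted p = 0.626). Without sham mouse 1 the difference was -0.01.

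Axl was nearly constant among sham mice, at 2261, 2267 and 2256, and was 2977, 2476 and 2831 after ON-CR. All 3 ON-CR values were above the sham values, with mouse 5 closest to them. The means were 2261 ± 5.33 and 2761 ± 258 (SD, n = 3 each), and the log2 difference of 0.28 (SE 0.11, 95% interval 0.04 to 0.53) did not pass (limma adjusted p = 0.240). The log2 ratio of Axl to Mertk was 1.96 ± 0.44 in sham and 2.00 ± 0.01 in ON-CR nerves (SD, n = 3 each, exact permutation p = 1).

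Cd36, which binds oxidized lipids and long-chain fatty acids and is also made by endothelial cells and adipocytes, measured 60.5, 41.6 and 64.8 in sham and 63.8, 50.3 and 162 in ON-CR nerves. Only ON-CR mouse 6 stood above the sham range. The log2 difference was 0.55 (95% interval -0.37 to 1.47, limma adjusted p = 0.574), and 0.05 without that mouse. Monocyte markers (Ly6c2, Ccr2, Plac8, Chil3) also summed highest in mouse 6, at 1008 against 216 to 532 in the other ON-CR mice and 257 to 405 in sham mice, with 0 of 4 called and none at 0 throughout. Summed B cell markers (Ms4a1, Cd79a, Cd79b, Pax5) were 581 in mouse 6 and between 65.5 and 169 in the other 5, with 0 of 4 called. The part of either in the values of Cd36 and the other members highest in mouse 6, among them Fcgr2b, was not tested.

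Msr1, the class A scavenger receptor of macrophages, was 71.1, 54.9 and 78.9 in sham mice and 133, 74.4 and 115 after ON-CR. ON-CR mouse 5 again lay within the sham range. Means of 68.3 ± 12.2 and 107 ± 29.9 (SD, n = 3 each) gave a log2 difference of 0.62 (95% interval 0.0017 to 1.24, limma adjusted p = 0.319).

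Cd68, widely used as a marker of phagocytic microglia and macrophages, had the smallest adjusted p of the members. Sham mice had 794, 622 and 617, and ON-CR mice had 2650.2, 1822 and 2654. The lowest ON-CR value was far above the highest sham value. The mean rose from 678 ± 100.5 to 2375 ± 479 (SD over 3 mice each), by 1.80 on the log2 scale (SE 0.17, 95% interval 1.42 to 2.17, limma adjusted p = 0.00128). Cd68 was called in all 14 alternative settings, the only member for which this held.

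Single mice stood at the edge of their group for many members. ON-CR mouse 5 was the lowest of its group for 10 of 10 members and mouse 6 the highest for 7 of 10, while sham mouse 2 was the lowest of its group for 7 of 10. Sham mouse 1 was the highest of its group for 5 of 10 and the lowest for Mertk. The number of members called rested on single mice. Without ON-CR mouse 6 only Cd68 was called (1 of 10), and without ON-CR mouse 5 the number was 6. It was 2 without sham mouse 2 and 2 without sham mouse 3 (Fcgr2b and Cd68). Without ON-CR mouse 4, whose library held both sex-linked transcripts, Fcgr2b, Fcer1g and Cd68 were still called.

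Levels can be compared between genes only per length, here as normalized value per kilobase of merged exons. In sham nerves Fcer1g was highest, at 1222 per kilobase, followed by Cd68 (539), Axl (449) and Fcgr3 (448). The ranges of Axl and Fcgr3 overlapped. Mertk (138), Fcgr1 (74.1) and Fcgr2b (72.5) came next, with overlapping ranges between neighbors, and Fcgr4 (24.2), Cd36 (15.5) and Msr1 (10.8) were lowest. After ON-CR the means were 3186 for Fcer1g, 1890 for Cd68, 926 for Fcgr3, 549 for Axl and 211 for Fcgr2b. Fcgr3 then stood above Axl without overlap of their ranges. The mean of Fcgr2b stood above those of Fcgr1 (160) and Mertk (159). Its range (162 to 254) overlapped theirs (134 to 195 and 141 to 171), so this order is not settled. Fcgr4 (88.2), Cd36 (25.6) and Msr1 (16.9) kept the lowest places.

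**Figure D3:**
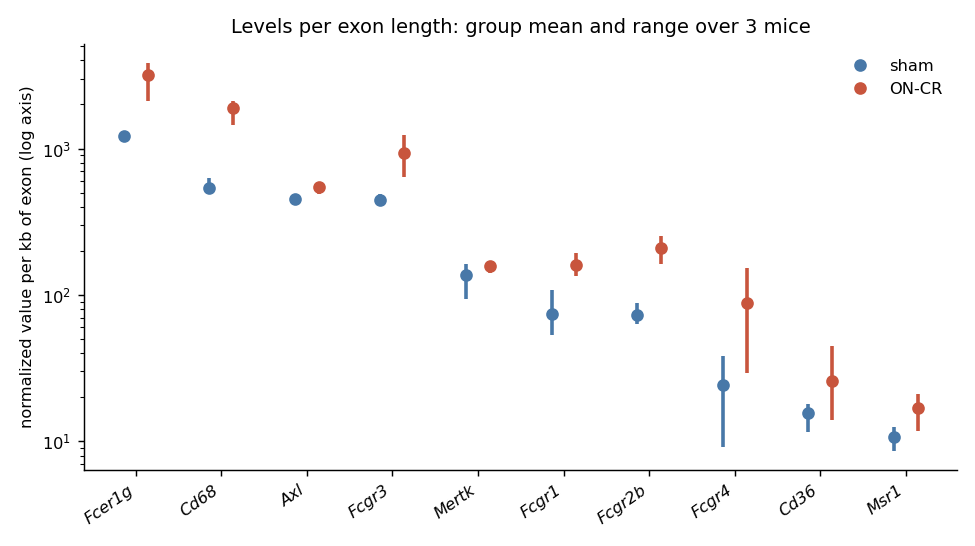
Level of each member as normalized value per kilobase of merged exons, on a log axis, with points at the mean of 3 mice and lines from the lowest to the highest mouse. Fcer1g has the highest mean and Msr1 the lowest in both groups, spanning 10.8 to 1222 per kilobase in sham nerves.

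To set the members beside the myeloid signal as a whole, each was divided by the mean of 9 pan-myeloid genes (Csf1r, Aif1, Itgam, Cx3cr1, Laptm5, Ptprc, C1qa, C1qb, C1qc). This mean moved from 10.46 to 11.36 on the log2(value + 1) scale, a difference of 0.90, and was 10.88 in ON-CR mouse 5 against 11.54 and 11.65 in mice 4 and 6. Of the list, 5 of 9 genes were called higher (Aif1, Laptm5, C1qa, C1qb, C1qc), while Csf1r was not (log2 difference 0.33, limma adjusted p = 0.402). The microglia markers (P2ry12, Tmem119, Sall1, Gpr34, Siglech, Fcrls) had 0 of 6 called and sums of 4354 to 6057 in sham and 4206 to 5354 in ON-CR nerves. Border macrophage markers (Mrc1, Cd163, Lyve1, Pf4, F13a1) had 0 of 5 called, with sums of 1552 to 1837 and 1175 to 1723.

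Relative to the pan-myeloid mean, Cd68 was higher in every ON-CR nerve than in every sham nerve, by 0.90 on the log2 scale (exact permutation p = 0.1). The same separation was found for Fcgr2b (difference 0.63) and Fcer1g (0.44), each with an exact permutation p = 0.1. Axl was lower in every ON-CR nerve, with a difference of -0.61 (exact permutation p = 0.1). The other 6 overlapped between groups: Fcgr1 (0.27), Fcgr3 (0.10), Fcgr4 (0.85), Mertk (-0.65), Cd36 (-0.34) and Msr1 (-0.27). With Csf1r alone or the microglia list as the reference, both chosen after seeing the data, Fcgr1, Fcgr2b, Fcgr3, Fcer1g and Cd68 were above without overlap. Axl then overlapped between the groups, with differences of -0.05 and 0.20.

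**Figure D4:**
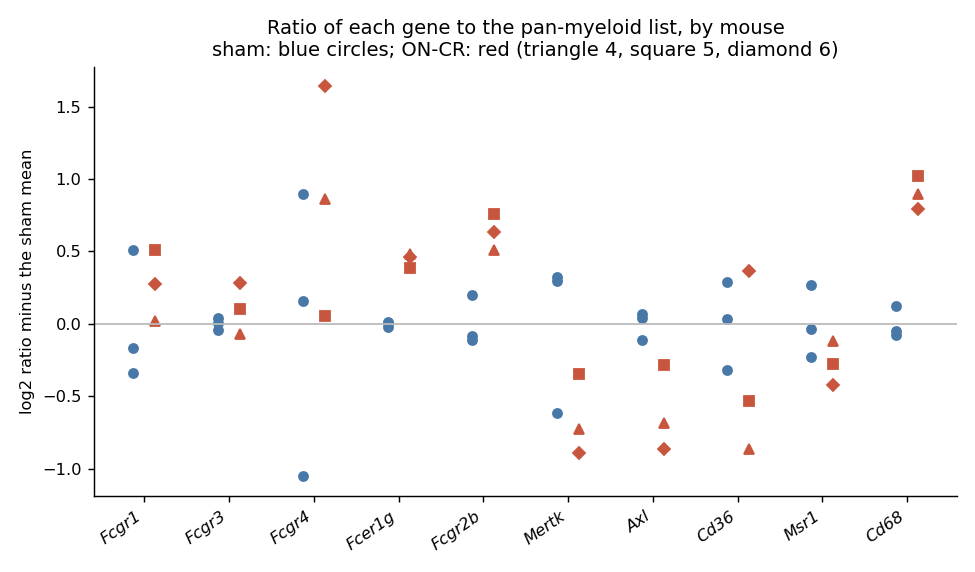
Log2 ratio of each member to the mean of the 9 pan-myeloid genes, shown as the difference from the sham mean of that ratio, with 1 point per mouse. Cd68, Fcgr2b and Fcer1g lie higher in all 3 ON-CR nerves and Axl lies lower in all 3.

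Genes that work with these receptors were taken from lists chosen with earlier results of these data known, so the counts are descriptive. Of the 106 list genes in the table, 17 were called higher and 3 lower. Over all genes tested these shares were 0.971% and 1.13%, to be set beside each list count below. Without ON-CR mouse 6 the number called higher was 4, and without ON-CR mouse 5 it was 37. Leaving out sham mice 1, 2 and 3 or ON-CR mouse 4 gave 11, 6, 9 and 11. Among 19 genes of immunoreceptor signaling, 3 were called higher and 0 lower, with a median log2 difference of 0.81 and all 19 above 0. Tyrobp, the adaptor that partners Trem2, rose by 1.26 on the log2 scale (limma adjusted p = 0.00636). The Src-family kinase Fgr rose by 1.93 (limma adjusted p = 0.0336) and the adaptor Lat2 by 1.24 (limma adjusted p = 0.0497). The kinase Syk itself differed by 0.49 and did not pass (limma adjusted p = 0.399). Of 8 other Fc receptors 0 were called in either direction, with a median of 0.33. Several were near the floor, and Fcrlb was at or under it in every mouse. Fcrla, Fcrl1, Fcrl5 and Fcmr averaged 2.35, 3.28, 0.313 and 1.53 in sham nerves. They were highest in ON-CR mouse 6, at 23.9, 21.8, 10.4 and 5.19. The most abundant of the list, the neonatal receptor Fcgrt, had means of 6305 and 5637.

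The oxidase that acts in the phagosome had 6 genes, of which 2 were called higher and 0 lower (median 0.89). These were its membrane subunits Cybb, which rose by 1.33 on the log2 scale (limma adjusted p = 0.0489), and Cyba, which rose by 0.95 (limma adjusted p = 0.0117). Among 11 negative regulators of phagocytosis, 3 were called higher and 0 lower (median 0.62). The inhibitory lectin Cd22 rose from 19.2 ± 12.8 to 178 ± 41.4 (SD, n = 3 each, limma adjusted p = 0.00441). The inhibitory receptor Lilrb4a rose by 1.70 and Cd24a by 0.76 on the log2 scale. Cd22 and Cd24a are also made by B cells.

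The partners of Mertk and Axl did not move in 1 direction. Of 10 ligands, bridging molecules and related receptors, 1 was called higher and 1 lower, with a median of -0.01. Lgals3, a galectin that can bridge Mertk to its targets, rose from 332 ± 40.0 to 1871 ± 161 (SD, n = 3 each, limma adjusted p = 0.000102). The integrin subunit Itgb3 fell by 1.05 on the log2 scale (limma adjusted p = 0.0287). The ligands Gas6 and Pros1 had log2 differences of -0.14 and 0.13, and the third receptor Tyro3 of -0.56 (limma adjusted p = 0.122), and none of these passed.

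Of 12 other receptors for apoptotic cells, 2 were called higher and 0 lower (median -0.05). Trem2, a lipid-sensing receptor of microglia, rose from 582 ± 133 to 1845 ± 402 (SD, n = 3 each, limma adjusted p = 0.00353), and the phosphatidylserine receptor Cd300a rose by 1.45 on the log2 scale. Among 15 other scavenger receptors 2 were called higher and 1 lower (median -0.06). Clec7a, the beta-glucan receptor, rose from 115 ± 46.9 to 1203 ± 403 (SD, n = 3 each, limma adjusted p = 0.00168). Olr1, which binds oxidized lipoprotein, averaged 0.649 in sham nerves, under the floor of 3 reads, and 13.03 after ON-CR. Scara3 fell by 0.63 on the log2 scale (limma adjusted p = 0.0480).

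Of 14 genes of the engulfment machinery 2 were called higher and 0 lower (median 0.05), namely Dock2, a Rac activator of hematopoietic cells, by 1.33, and the lipid exporter Abca1, by 1.26 on the log2 scale. Of 12 genes of phagosome maturation and the lysosomal membrane, the list nearest to Cd68 in location, 2 were called higher and 1 lower (median -0.05). Gpnmb rose from 2031 ± 457 to 10040 ± 1474 (SD, n = 3 each, limma adjusted p = 0.000341) and Cd63 rose by 0.59 on the log2 scale. The lysosomal channel gene Mcoln1 fell by 1.12. Lamp1 and Lamp2, abundant proteins of the same membrane, had log2 differences of -0.14 and 0.02, against 1.80 for Cd68.

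**Figure D5:**
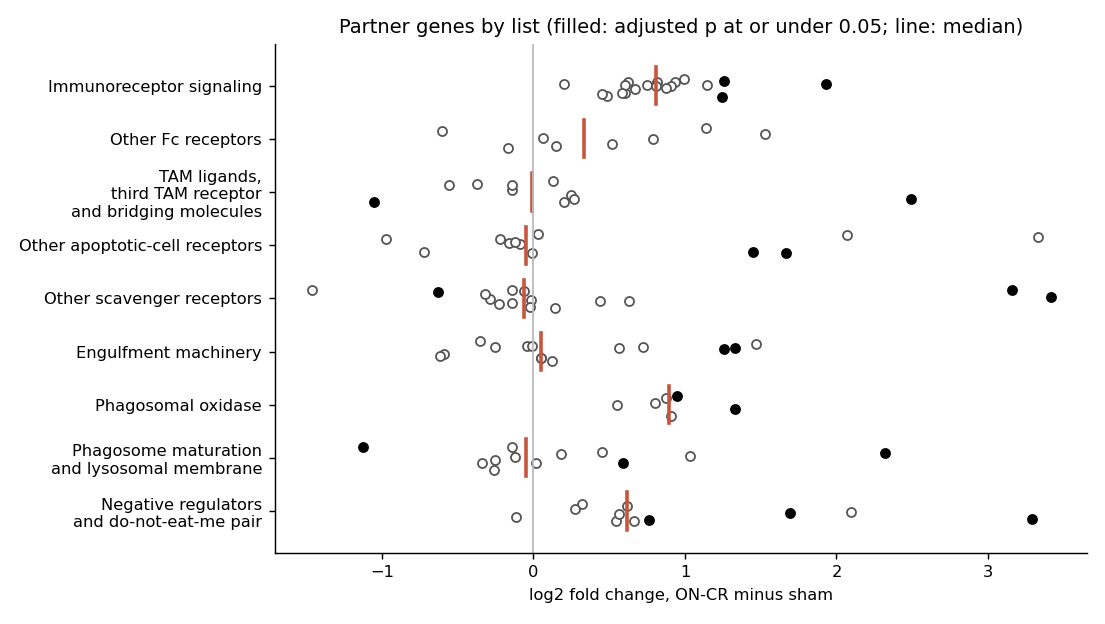
Log2 fold change, ON-CR minus sham, of every gene in the 9 partner lists, with 1 point per gene, filled where limma's adjusted p was at or under 0.05, and a line at the median of each list. Immunoreceptor signaling and the phagosomal oxidase have all genes above 0 (medians 0.81 and 0.89), whereas 4 lists have medians of -0.06 to -0.01.

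Cell types other than microglia and macrophages can also carry some members. Markers of mast cells, which express Fcer1g, had 0 of 5 called, with 0 of 5 log2 differences above 0. Their sums, to which Kit gave the largest part, did not overlap, at 662 to 682 in sham and 397 to 638 in ON-CR nerves. NK cell markers summed to between 18.6 and 31.9 in sham and between 19.9 and 68.5 in ON-CR nerves, with 0 of 4 called. Neutrophil markers had 0 of 4 called and sums of 50.5 to 184 and 89.7 to 166. For Cd36, the endothelial list had 0 of 5 called and sums of 2294 to 2735 and 2123 to 2912, and the 3 adipocyte genes in the table summed to between 3.76 and 23.0 and between 0 and 12.6. For Mertk and Axl, the astrocyte list (Aqp4, Gja1, Slc1a3, Aldh1l1, Gfap) had 0 of 5 called, with 4 of 5 log2 differences above 0. Its sums, to which Gfap gave the largest part, did not overlap. They were 155309 to 186516 in sham and 230013 to 267144 in ON-CR nerves. The part of these cell types in the values of the members was not tested.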

How the data were processed

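RNA came from optic nerves of 3 sham and 3 ON-CR mice, and the sample labels name 1 mouse per library. It was sequenced by the authors from low-input cDNA, aligned and quantified with DRAGEN on mm10 and median-normalized in Partek 10.0. They tested gene counts with DESeq2. The deposited values are a normalized signal per gene (estimated counts divided by 1 factor per library). After division by the value of 1 read, 66.2% to 68.4% of values per library were whole reads (tolerance 0.02). By choice, the values were not rounded for a count model, and DESeq2 was not run here. The test was limma 3.58.1 (R 4.3.3) on log2(value + 1), with a mean-variance trend, no covariate and Benjamini-Hochberg adjustment over 25755 genes. Fold changes are on that scale, which understates changes of low genes. On simulated data of 25755 genes, 200 of 200 genes changed 4-fold were called, with 4 false calls. The changed genes were drawn from the more abundant ones, and all genes were given the same added log2 spread. Power for smaller changes or for more variable genes was therefore not measured. Depth was estimated per library, and intervals of reads cover counting error only. Within-nerve ratios were compared with exact two-sided permutation tests.

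The members and gene lists were chosen with earlier results of these data known, and list counts are therefore descriptive. The text names all members, the called genes of each list and a few of the most abundant or functionally central genes not called, of which Syk, Gas6, Pros1 and Tyro3 were picked for their role after values were seen. No mouse number occurs in both groups, and samples were treated as unpaired, each mouse being 1 replicate. Alternatives were pseudocounts of 0.1 and 2, upper-quartile, total-sum and trimmed-mean scaling, a mean value of at least 10, a robust fit, sample quality weights and leaving out each mouse. Gene positions and exon lengths are from the GENCODE annotation of GRCm38, and promoters from RefSeq. Protein sequences were not analyzed here. Some marker genes are not reported here and were left out of the list counts, sums and means after the data were seen, for a reason unrelated to their values.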

Additional observations from a re-analysis of the deposited data

How the results depend on the processing

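The 14 alternatives left the direction of 9 of the 10 members unchanged, and the exception was Mertk, whose log2 difference ranged from -0.012 to 0.38 when single mice were left out. Members called higher ranged from 1 to 6 when single mice were left out and numbered 4 or 5 in the other 8 settings, with Fcgr1 as the additional call. Cd68 was called in all 14, Fcgr2b in 13, Fcer1g in 11 and Fcgr3 in 9.

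Over the whole table, 250 genes were called higher. The count was 421 with total-sum scaling and 388 with sample quality weights, and 39 to 489 when single mice were left out. The 290 genes called lower became 28 to 365 when single mice were left out. Total-sum scaling moved the median of all genes by 0.12 on the log2 scale and the share of calls that were higher from 46.3% to 68.3%. Leaving out single mice gave shares of 29.7% to 63.4%. In the partner lists, 17 genes called higher became 26 with sample quality weights and 4 to 37 when single mice were left out, and 3 called lower became 0 to 4. Fewer mice were fitted in the leave-one-out settings, and the cause of the other changes was not tested.

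When single mice were left out, the difference between ON-CR and sham in the log2 ratio of Fcgr4 to Fcgr2b ranged from -0.25 to 0.71, with a value of -0.17 without ON-CR mouse 6, and that of Axl to Mertk from -0.095 to 0.30, with -0.071 without sham mouse 2. Against Csf1r, the differences of Cd36 and Msr1 turned to 0.22 and 0.29. Against the microglia list, those of Mertk, Axl, Cd36 and Msr1 turned to 0.15, 0.20, 0.47 and 0.54. Both references were chosen after seeing the data. The DESeq2 alternative was not run because many values are not whole reads and they were not rounded. No paired analysis was possible because the mice of the 2 groups carry different numbers. With 3 mice per group, an exact permutation test cannot give a p under 0.1, and the precision of each fold change is that of its interval.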
